A study of Mus musculus with 14 samples.

Results

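Glypicans and syndecans are the 2 families of cell-surface proteins whose core carries heparan sulfate chains, and their 10 mouse genes, *Gpc1* to *Gpc6* and *Sdc1* to *Sdc4*, were followed through RNA-seq libraries of sorted forelimb bud cells. The rule for a member was its family, applied to the 24454 genes of the count table, and all 10 passed the filter on low counts. Embryos carrying the *Sox9* IRES-EGFP reporter allele, on a mixed Swiss Albino background and of both sexes, supplied every population, and no mutant or treated group was used. Live cells negative for CD31, Ter119, CD45, EpCam, Gr1 and CD11b were sorted into S9-JAG1+ limb bud mesenchymal progenitors (LMPs; no *Sox9* reporter, JAG1 on the surface), S9-Pαhi LMPs (no reporter, high PDGFRα), S9+Pαhi osteo-chondrogenic progenitors (OCPs) and S9-SCA-1+ cells at embryonic day E10.5, and S9+PαhiCol2a1+ chondroblasts at E11.5. There were 3 libraries for each population and 2 for the S9-SCA-1+ cells, 14 in all, each from pooled forelimb buds and described in the methods as a biological replicate. Chondroblasts were taken with the same reporter and PDGFRα gate as OCPs, with no sort on *Col2a1*, so that cell state and stage cannot be told apart in any comparison with them. The labels assign no embryo or litter to a library, so p-values measure the spread between these pools.

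Glypicans are held on the outer membrane by a lipid anchor and syndecans span the membrane with a short cytoplasmic tail. Both carry heparan sulfate, a long sugar chain whose sulfate groups bind FGFs, BMPs, Hedgehog and WNT ligands, so that they act as co-receptors, local stores or competitors of these signals. In the limb bud, *Gpc3* is known for limiting Hedgehog signaling and its loss causes overgrowth with skeletal defects in mouse and human, while *Sdc3* is known from the condensing precartilage mesenchyme.

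Levels are given as CPM, counts relative to the library total after scaling with TMM factors, and levels of different genes are set side by side only as CPM per kb of the exon length deposited with the counts. A difference between populations was said to pass the test when the edgeR quasi-likelihood p, adjusted by Benjamini-Hochberg over the 15125 genes tested, was at most 0.1. It was called when the log2 fold change was also at least 1.2 in size, a 2.30-fold difference. Totals ran from 20316583 to 29162751 counts per library, and the members held between 25 and 45735 counts in each of them. Among the sort markers, *Jag1* averaged 296 CPM in S9-JAG1+ LMPs against 11.8 in S9-Pαhi LMPs and 119 in chondroblasts, *Sox9* 437 CPM in OCPs against 62.3 in S9-Pαhi LMPs, *Col2a1* 1537 CPM in chondroblasts against 990 in OCPs, and of the further markers the myogenic regulator *Pax3* 463 CPM in S9-SCA-1+ cells against at most 0.768 elsewhere. *Pdgfra*, the gene of PDGFRα, averaged 247 CPM in S9-JAG1+ LMPs, 443 in S9-Pαhi LMPs, 719 in OCPs and 864 in chondroblasts, but 34.4 in S9-SCA-1+ cells. *Ly6a*, the gene of the SCA-1 antigen, was low even in S9-SCA-1+ cells at 3.23 CPM, against at most 0.248 in the other populations. Replicate 2 of the OCPs stood apart, with 7.32% of tested genes more than 2-fold from the mean of the other replicates against 1.63% to 5.78% in the remaining libraries, and replicate 3 of the S9-SCA-1+ cells held 3226 CPM of red blood cell transcripts against 116 in replicate 2.

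The genes lie on 8 chromosomes of mm10 (GRCm38), and 4 of them form 2 neighbouring pairs. *Gpc4* (chromosome X, 52051007 to 52164923) and *Gpc3* (chromosome X, 52272426 to 52613974) are separated by 107502 bases, and *Gpc5* (chromosome 14, 115092201 to 116525192) and *Gpc6* (chromosome 14, 116924920 to 117979529) by 399727 bases. *Gpc1* lies on chromosome 1 (92831645 to 92860211), *Gpc2* on chromosome 5 (138273657 to 138280026), *Sdc1* on chromosome 12 (8771396 to 8793716), *Sdc2* on chromosome 15 (32920723 to 33034721), *Sdc3* on chromosome 4 (130792537 to 130826318) and *Sdc4* on chromosome 2 (164424247 to 164443188). Counts cover all exons of a gene together. In the GENCODE annotation, 55.6% of the 4274 exon bases of *Gpc2* lie in exons of *Gm43720* on the same strand. Of the 5159 of *Gpc1*, 18.9% lie opposite *Ankmy1*. The RefSeq exons counted are shorter, at 2513 and 3552 bases, and the share of them that overlaps other genes was not computed. As the use of strand in counting is not given, reads from any shared bases cannot be assigned to 1 of the genes. *Ankmy1* itself held only 0 to 14 counts per library. *Gpc3* and *Gpc4* are X-linked, and the X-inactivation transcript *Xist* reached 1475 CPM in OCP replicate 2 against at most 826 in any other library. Its part in their values was not tested.

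Promoter sequences from RefSeq (GRCm38.p6) were at hand for 7 of the members and 3 of the 250-base windows before the start touch an annotated exon. The windows of *Gpc3* and *Sdc4* touch none and are shown because they belong to the most abundant glypican, which was lower in S9-SCA-1+ cells than elsewhere, and to the syndecan that was higher there. The *Sdc4* window is intronic to a longer *Sdc4* transcript in GENCODE. Both are on the minus strand and read 5′ to 3′ towards the start of transcription, at chrX:52613975-52614224 and chr2:164443189-164443438, with GGGCGG on either strand, the GC box bound by SP1-like factors, in capitals.
Gpc3: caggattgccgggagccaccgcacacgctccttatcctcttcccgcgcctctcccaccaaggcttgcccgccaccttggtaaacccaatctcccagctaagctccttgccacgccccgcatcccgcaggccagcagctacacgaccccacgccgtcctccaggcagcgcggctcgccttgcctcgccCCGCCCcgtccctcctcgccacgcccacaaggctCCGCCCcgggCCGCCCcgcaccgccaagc
Sdc4: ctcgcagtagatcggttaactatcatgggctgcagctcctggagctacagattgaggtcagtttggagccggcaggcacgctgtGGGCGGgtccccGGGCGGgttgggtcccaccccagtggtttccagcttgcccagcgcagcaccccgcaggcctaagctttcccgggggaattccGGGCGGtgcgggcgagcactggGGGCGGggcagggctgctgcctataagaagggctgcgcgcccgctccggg
*Gpc3* held 3 matches, all as CCGCCC, and *Sdc4* held 4, all as GGGCGG. At least 1 match was present in all 7 windows of members, with 1 to 4 matches each, against 32.7% of the 32851 RefSeq promoter windows of this length. The motif CCAAT on either strand was found in the windows of *Gpc2*, *Gpc3* and *Sdc1* (33.9% of all windows) and TATAA on either strand in those of *Gpc5*, *Sdc1* and *Sdc4* (22.8% of all). CG pairs numbered 10 to 32 in the 7 windows against a median of 6 over all. These matches describe letters and are not binding sites.

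The 2 families differed in abundance, and in each of them 1 gene held the largest share. Per kb of exon, the summed glypican level was 610 ± 57.9 CPM (SD, n = 3) in S9-JAG1+ LMPs, 837 ± 16.3 in S9-Pαhi LMPs, 884 ± 84.8 in OCPs, 848 ± 11.1 in chondroblasts (n = 3 each) and 373 ± 30.3 in S9-SCA-1+ cells (n = 2). The syndecan sum was smaller throughout, at 171 ± 10.2, 182 ± 6.81, 142 ± 25.6, 134 ± 1.13 and 148 ± 11.3 CPM per kb in the same order. *Gpc3* made up 66.8% to 81.8% of the glypican sum in single libraries, followed by *Gpc1* and *Gpc2* in either order, whereas *Gpc4* and *Gpc5* never exceeded 1.47% and 0.223%. *Sdc1* averaged 71.8% of the syndecan sum in S9-JAG1+ LMPs and 51.3% in chondroblasts, where *Sdc3* took up to 35.8%. The S9-SCA-1+ libraries stood out by the smallest *Gpc3* share and the largest *Sdc4* share, the latter 5.21% and 5.63%.

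**Figure D1:**
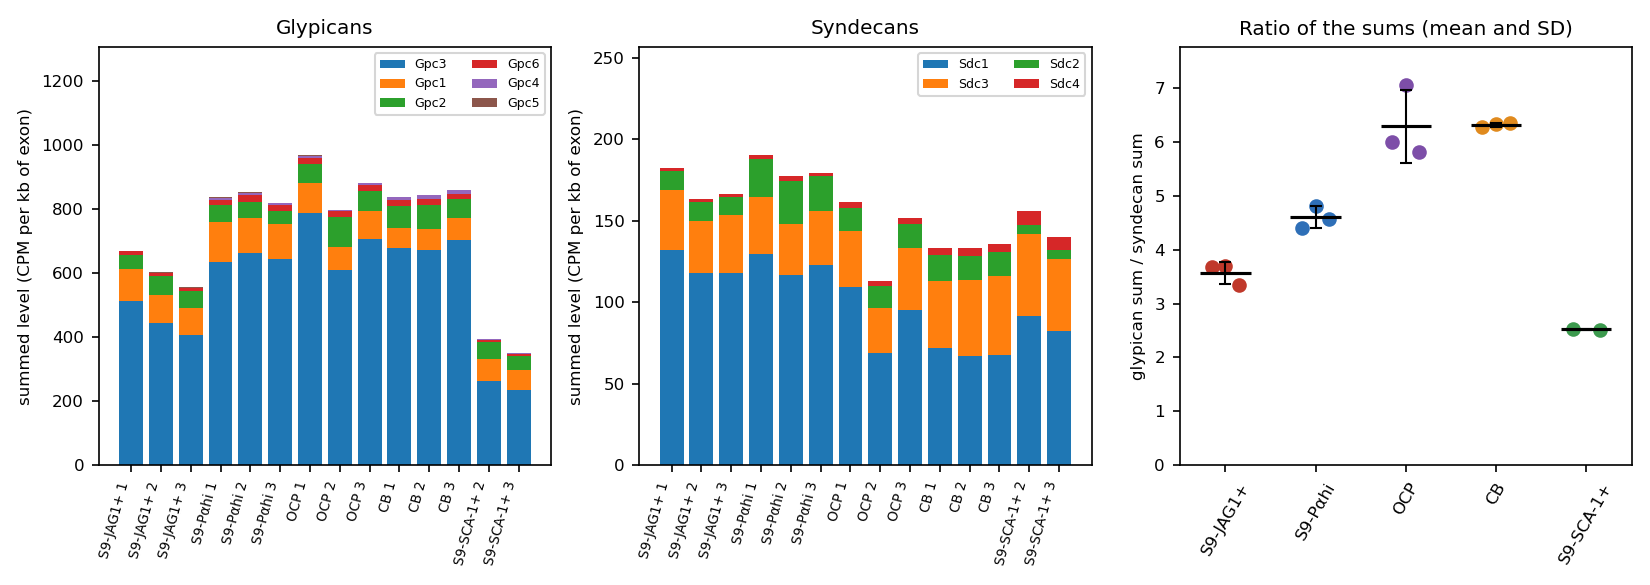
Summed levels of glypicans (left) and syndecans (middle) in each of the 14 libraries, in CPM per kb of exon and stacked by gene, and the ratio of the 2 sums (right), where points are libraries and bars the mean and SD of a population. *Gpc3* fills most of every glypican column, and the ratio runs from 2.51 in an S9-SCA-1+ library to 7.05 in an OCP library.

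The ratio of the glypican to the syndecan sum differed in range between most populations, but no comparison of it had an adjusted p of at most 0.1. It was 3.34 to 3.69 in S9-JAG1+ LMPs, 4.41 to 4.81 in S9-Pαhi LMPs, 5.82 to 7.05 in OCPs, 6.28 to 6.35 in chondroblasts, and 2.51 and 2.53 in S9-SCA-1+ cells. The ranges of S9-JAG1+ LMPs, S9-Pαhi LMPs and OCPs did not overlap, whereas the chondroblast values lay inside the OCP range. With 3 libraries against 3, an exact permutation test (two-sided) cannot go below p = 0.1. This is what S9-Pαhi against S9-JAG1+ LMPs, OCPs against S9-Pαhi LMPs and chondroblasts against S9-JAG1+ LMPs gave, each 0.125 after adjustment. For S9-SCA-1+ cells against the other 12 libraries the exact permutation p was 0.022, also the smallest possible. It was 0.11 after adjustment over the 5 comparisons. Those 12 libraries belong to several populations with unlike ratios and are not replicates of a single condition, so this p does not measure a spread between replicates. The highest ratio, 7.05, came from OCP replicate 2; the other OCP libraries were at 5.99 and 5.82.

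All 10 members differed somewhere among the 5 populations by the joint test, which 74.8% of tested genes passed. The largest adjusted p was 0.0201, for *Gpc2*, and the smallest 6.17e-09, for *Gpc4*. Over the 10 pairs of populations, 77 of 100 member-by-pair tests passed, against 42.5% of all gene-by-pair tests. Of the 100, 23 were called, against 11.8% of all gene-by-pair tests. The pairs share populations, so these tests are not independent. The shares over all genes include genes with fewer counts than any member and were not matched for level. *Gpc4* was called in 7 pairs, *Gpc5* in 4, and *Gpc3*, *Gpc6*, *Sdc2* and *Sdc4* in 3 each, while *Gpc1*, *Gpc2*, *Sdc1* and *Sdc3* were called in none. The ratio of the highest to the lowest population mean was 8.23 for *Gpc4*, 4.92 for *Gpc5*, 4.32 for *Sdc2* and 4.31 for *Sdc4*, and between 1.43 and 2.81 for the other members. In bulk samples such as these, fewer expressing cells and less RNA per cell cannot be told apart.

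**Figure D2:**
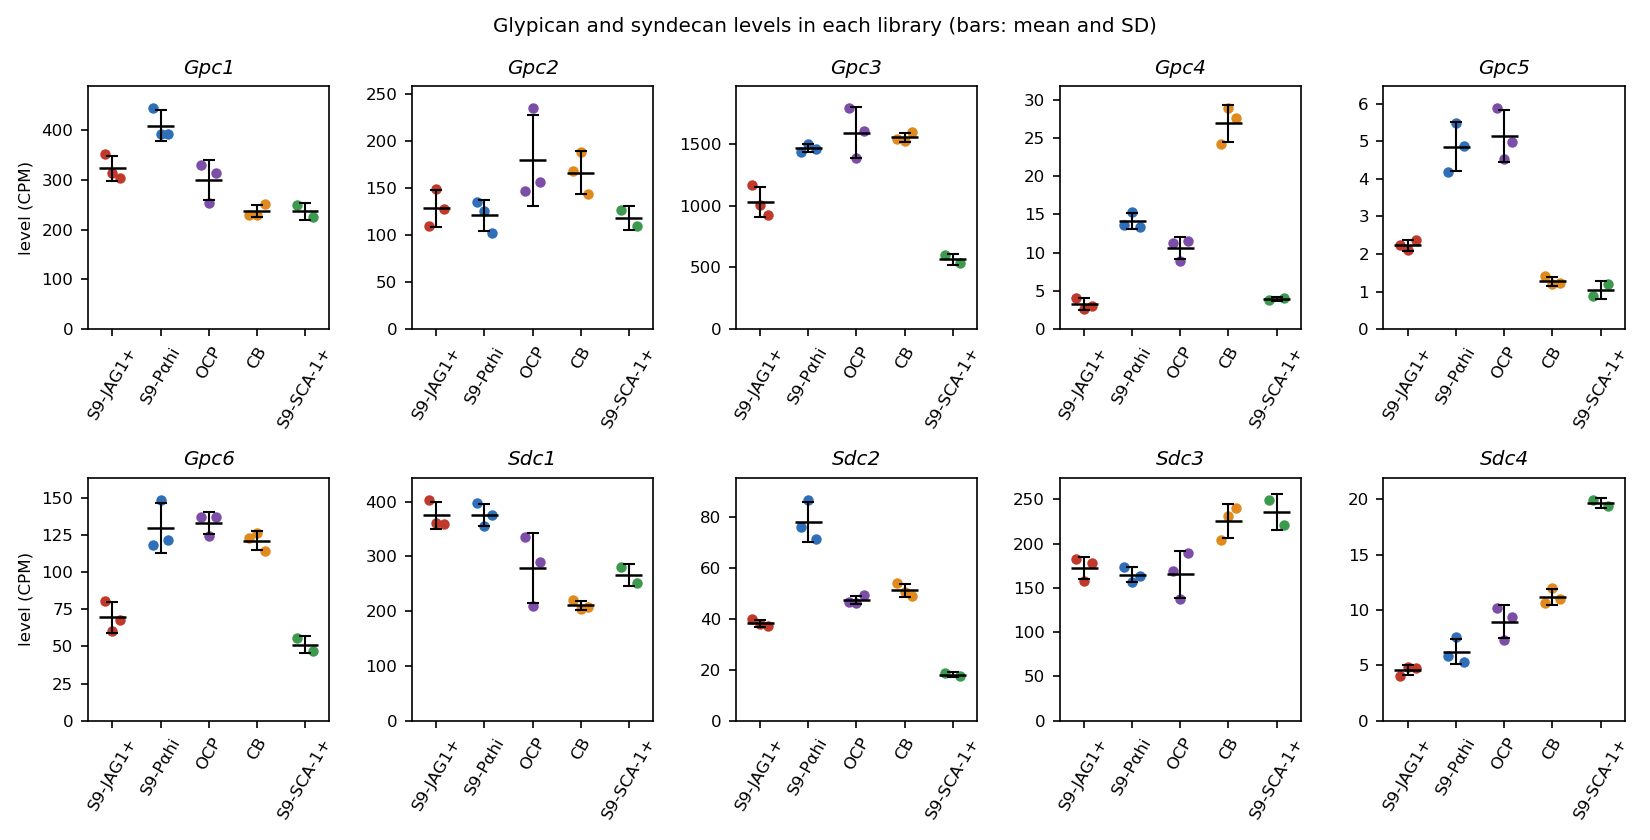
Level of each member in CPM (vertical axes from 0) in each library of the 5 populations, with points for libraries and bars for the mean and SD. *Gpc4* is highest in chondroblasts at 24.2 to 28.9 CPM, *Sdc2* in S9-Pαhi LMPs and *Sdc4* in S9-SCA-1+ cells.

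*Gpc3*, the abundant glypican, was at 1166, 1007 and 924 CPM in S9-JAG1+ LMPs, 1438, 1503 and 1461 in S9-Pαhi LMPs, 1791, 1383 and 1602 in OCPs, 1538, 1527 and 1595 in chondroblasts, and 598 and 534 in S9-SCA-1+ cells. No difference between S9-Pαhi LMPs, OCPs and chondroblasts passed the test, S9-JAG1+ LMPs lay below all of them, and S9-SCA-1+ cells were lowest without overlap. *Gpc6*, a less abundant family member, was likewise lowest in S9-SCA-1+ cells and next lowest in S9-JAG1+ LMPs, at 60.1 to 80.6 CPM in S9-JAG1+ LMPs, 118 to 149 in S9-Pαhi LMPs, 125 to 137 in OCPs, 114 to 126 in chondroblasts and 47.1 to 55.4 in S9-SCA-1+ cells.

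*Gpc4*, the X-linked neighbour of *Gpc3*, had the widest range of all members. It was at 4.11, 2.68 and 3.01 CPM in S9-JAG1+ LMPs, 13.6, 15.3 and 13.4 in S9-Pαhi LMPs, 11.3, 8.94 and 11.502 in OCPs, 24.2, 28.9 and 27.5 in chondroblasts, and 3.78 and 4.10 in S9-SCA-1+ cells. The chondroblast libraries were above all others, and the S9-SCA-1+ values lay inside the range of S9-JAG1+ LMPs (adjusted p = 0.328 for that pair). In contrast, *Gpc5*, a glypican next to *Gpc6*, was lowest in chondroblasts and S9-SCA-1+ cells. Its levels were 2.23, 2.10 and 2.38 CPM in S9-JAG1+ LMPs, 4.19, 5.49 and 4.88 in S9-Pαhi LMPs, 5.88, 4.52 and 4.99 in OCPs, 1.41, 1.198 and 1.22 in chondroblasts, and 0.874 and 1.21 in S9-SCA-1+ cells, from 25 to 146 counts per library. OCPs and S9-Pαhi LMPs overlapped, as did chondroblasts and S9-SCA-1+ cells, and the difference within either pair was below the threshold (adjusted p = 0.797 and 0.31).

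*Gpc1*, abundant in the nervous system, spanned 304 to 351 CPM in S9-JAG1+ LMPs, 391 to 444 in S9-Pαhi LMPs, 253 to 330 in OCPs, 229 to 251 in chondroblasts and 224 to 249 in S9-SCA-1+ cells. S9-Pαhi LMPs were highest without overlap, and chondroblasts and S9-SCA-1+ cells shared the lowest place (adjusted p = 0.994). *Gpc2*, known from developing neurons, had the weakest joint test of the members, with means of 129 ± 19.6, 121 ± 16.8, 180 ± 48.5, 167 ± 22.5 (SD, n = 3 each) and 118 ± 12.4 CPM (n = 2) in the usual order. Its highest value, 235 CPM, was that of OCP replicate 2, while the other OCP libraries had 147 and 156. Summed levels of the 6 neuron markers were 20.4 to 24.7 CPM in chondroblasts, 19.0 and 21.0 in S9-SCA-1+ cells and 8.97 to 12.7 elsewhere. No marker of the list was at 0 throughout a population. Different genes led the sums of chondroblasts and S9-SCA-1+ cells. *Stmn2* averaged 10.48 CPM in chondroblasts and 0.124 in S9-SCA-1+ cells, and *Nefl* 1.95 and 1.48. *Tubb3*, *Elavl3*, *Elavl4* and *Isl1* were lower in chondroblasts than in S9-SCA-1+ cells, *Isl1* at 1.88 against 6.19 CPM. The part of these markers in the *Gpc1* and *Gpc2* values was not tested.

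Among the syndecans, *Sdc1*, best known from epithelia and plasma cells, stood at 404, 361 and 360 CPM in S9-JAG1+ LMPs, 397, 356 and 375 in S9-Pαhi LMPs, 335, 210 and 290 in OCPs, 220, 205 and 207 in chondroblasts, and 280 and 251 in S9-SCA-1+ cells. Both LMP populations lay above all other libraries, and OCP replicate 2 was in the chondroblast range. The summed level of the 10 ectoderm markers, of which 6 were tested, was 21.6 to 25.5 CPM in chondroblasts and 6.41 to 15.4 elsewhere. Within the list, *Krt18* averaged 10.1 CPM in chondroblasts and 2.20 in S9-JAG1+ LMPs, *Krt8* averaged 1.52 and 3.21 with its highest value, 6.38 CPM, in S9-JAG1+ replicate 1, and *Cdh1* had no count in S9-JAG1+ LMPs. Their part in the *Sdc1* values was not tested. *Sdc2*, the fibroblast and mesenchyme syndecan, peaked in S9-Pαhi LMPs. Its values were 39.7, 37.9 and 37.1 CPM in S9-JAG1+ LMPs, 75.9, 86.7 and 71.3 in S9-Pαhi LMPs, 46.5, 46.3 and 49.3 in OCPs, 53.9, 50.4 and 49.0 in chondroblasts, and 18.6 and 17.4 in S9-SCA-1+ cells. Only OCPs and chondroblasts failed to separate in this order (adjusted p = 0.362).

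*Sdc3*, the syndecan of precartilage and nerve, was at 158 to 182 CPM in S9-JAG1+ LMPs, 157 to 174 in S9-Pαhi LMPs and 137 to 190 in OCPs, and higher at 204, 231 and 241 in chondroblasts and 250 and 221 in S9-SCA-1+ cells. *Sdc4*, a syndecan of focal adhesions, was lowest in S9-JAG1+ LMPs and highest in S9-SCA-1+ cells. It stood at 4.02, 4.86 and 4.80 CPM in S9-JAG1+ LMPs, 5.86, 7.56 and 5.33 in S9-Pαhi LMPs, 10.2, 7.28 and 9.37 in OCPs, 10.6, 12.0 and 11.0 in chondroblasts, and 19.97 and 19.4 in S9-SCA-1+ cells. Every neighbouring step in the order of *Sdc4* means passed the test except that from OCPs to chondroblasts (adjusted p = 0.131). Beside these values, the 6 neural crest and glia markers summed to 46.6 to 53.8 CPM in chondroblasts, 26.9 to 33.2 in OCPs and 12.8 to 19.6 in the other populations. The 8 endothelial markers summed to 11.9 and 15.8 CPM in S9-SCA-1+ libraries against 3.07 to 11.8 elsewhere. Of these, *Kdr* was at 6.09 and 10.9 CPM in S9-SCA-1+ libraries, against population means of at most 1.26 elsewhere. Every other endothelial marker averaged less in S9-SCA-1+ cells than in S9-Pαhi LMPs, such as *Pecam1* at 0.354 against 0.783 CPM. Whether neural crest, glial or endothelial cells contributed was not tested.

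**Figure D3:**
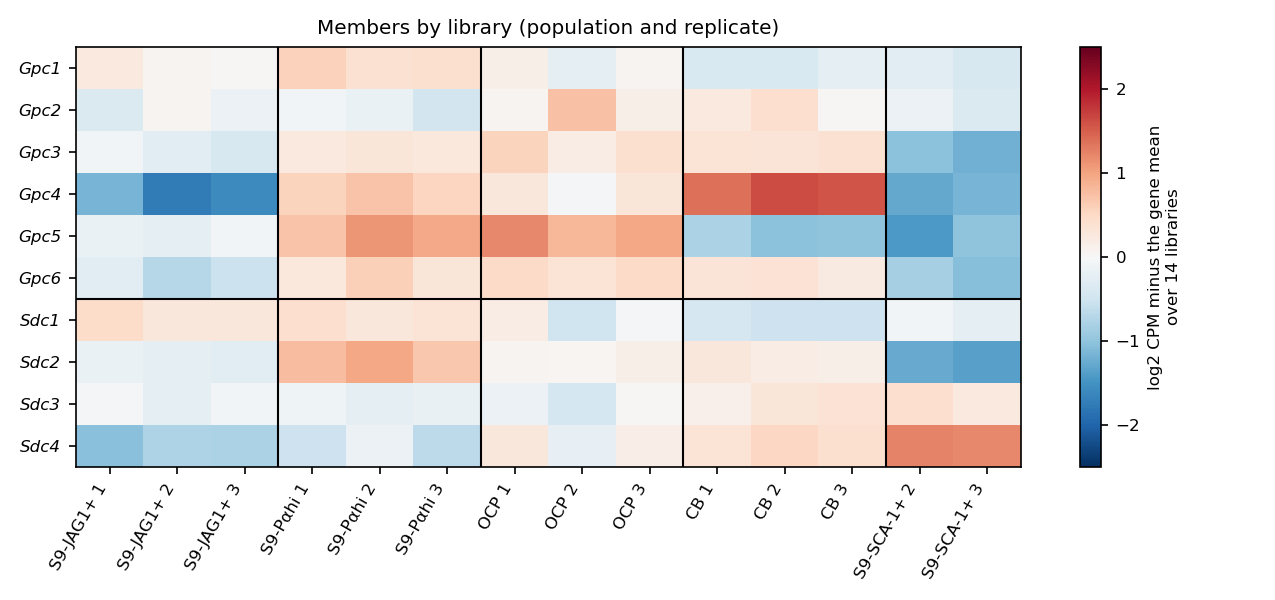
Log2 CPM of each member minus its own mean over the 14 libraries on a colour scale centred on 0, with 1 column per library and 1 row per gene. *Gpc3*, *Gpc6* and *Sdc2* are blue and *Sdc4* is red in both S9-SCA-1+ columns, and *Gpc4* and *Gpc5* part in the chondroblast columns.

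In the first step of the study's ordering, from S9-JAG1+ to S9-Pαhi LMPs, 5 of the 6 glypicans and 2 of the 4 syndecans differed. Of the 10 members, 7 passed the test, all higher in S9-Pαhi LMPs and all without overlap of libraries; 28.1% of tested genes passed (15.2% higher, 12.8% lower) and 39.7% did not overlap. Only *Gpc4* was called, where 7.00% of tested genes were (4.42% higher, 2.58% lower), with a log2 fold change of 2.11 ± 0.16 (SE; edgeR adjusted p = 5.14e-07). *Gpc5* (1.12 ± 0.19), *Sdc2* (1.03 ± 0.08) and *Gpc6* (0.90 ± 0.12) followed, and *Gpc3* and *Gpc1* were higher by 0.51 ± 0.10 and 0.34 ± 0.10. *Sdc4* passed at 0.46 ± 0.16, but *Gpc2*, *Sdc1* and *Sdc3* had differences of -0.09, 0.0050 and -0.07. The median log2 fold change was 0.48 over the members and -0.0025 over all tested genes. *Gpc5* became called without S9-Pαhi replicate 1 (1.22). *Gpc1* no longer passed without S9-JAG1+ replicate 3 or S9-Pαhi replicate 1 (adjusted p = 0.113 and 0.124), and *Sdc4* without S9-JAG1+ replicate 1 or S9-Pαhi replicate 2 (0.167 and 0.257).

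OCPs and S9-Pαhi LMPs, both from E10.5, were set apart in the sort by the *Sox9* reporter. Between them no member was called by edgeR or by the DESeq2 Wald test, against 4.84% of tested genes (3.48% higher in OCPs, 1.36% lower). A smaller difference passed for 6 members, 4 lower and 2 higher, the same number as had an unadjusted p below 0.05, against 20.1% of tested genes (11.8% higher, 8.35% lower). Of the 6, all but *Sdc4* were without overlap of libraries, as were 26.7% of tested genes. *Sdc2* was lower in OCPs by -0.72 ± 0.08 on the log2 scale (adjusted p = 7.80e-05), *Gpc1* by -0.45 ± 0.10, *Sdc1* by -0.43 ± 0.13 and *Gpc4* by -0.41 ± 0.15, whereas *Gpc2* and *Sdc4* were higher by 0.57 ± 0.17 and 0.51 ± 0.16. *Gpc3*, *Gpc5*, *Gpc6* and *Sdc3* were at 0.12, 0.08, 0.04 and 0.0039. The weaker of these depended on single libraries. Without OCP replicate 2, *Gpc2* was at 0.31 (adjusted p = 0.211) and *Gpc4* at -0.32 (0.204). *Gpc2* was also lost without S9-Pαhi replicate 3 (0.189), *Gpc4* without any 1 of the S9-Pαhi or S9-SCA-1+ libraries (0.10 to 0.183), *Sdc1* without S9-Pαhi replicate 1 or 3 (0.121 and 0.105), and *Sdc4* without OCP replicate 3 or S9-Pαhi replicate 1 or 3 (0.141, 0.134 and 0.175).

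Between OCPs and chondroblasts, 2 glypicans parted: *Gpc4* was higher in chondroblasts by 1.34 ± 0.14 (adjusted p = 2.05e-05) and *Gpc5* lower by -2.003 ± 0.19 (8.40e-06), a 4.01-fold difference. No other member was called, and 7.77% of tested genes were (6.60% higher, 1.16% lower). *Sdc3* was higher by 0.45 ± 0.11, and *Gpc1* and *Sdc1* were lower by -0.34 ± 0.10 and -0.40 ± 0.13, which makes 5 members past the test against 34.8% of tested genes (18.3% higher, 16.5% lower). *Gpc1*, *Gpc4*, *Gpc5*, *Sdc3* and *Sdc4* did not overlap, nor did 39.1% of tested genes. *Gpc3* and *Gpc6* were at -0.04 and -0.13. *Sdc1* was lost without OCP replicate 1 (-0.25, adjusted p = 0.14), and *Sdc4*, at 0.32, passed without OCP replicate 1 or S9-Pαhi replicate 2 (0.0818 and 0.10).

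Across the whole order, from S9-JAG1+ LMPs to chondroblasts, all 10 members passed, but so did 65.9% of tested genes (35.4% higher, 30.5% lower), and all but *Gpc2* were without overlap, as were 70.1% of tested genes. *Gpc4* (3.04 ± 0.16, an 8.22-fold difference, adjusted p = 5.09e-09) and *Sdc4* (1.29 ± 0.16, 9.20e-06) were called higher, against 15.2% of tested genes called higher, 4.17% called lower and 19.4% in all. *Gpc6* (0.80), *Gpc3* (0.59), *Sdc2* (0.42), *Sdc3* (0.38) and *Gpc2* (0.37) were higher as well, and *Sdc1* (-0.83), *Gpc5* (-0.80) and *Gpc1* (-0.45) lower. For *Gpc2* the adjusted p of 0.0777 moved to between 0.106 and 0.294 when S9-JAG1+ replicate 1 or 3, OCP replicate 3, or chondroblast replicate 1 or 2 was left out. These 4 comparisons share populations and are not independent of each other.

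**Figure D4:**
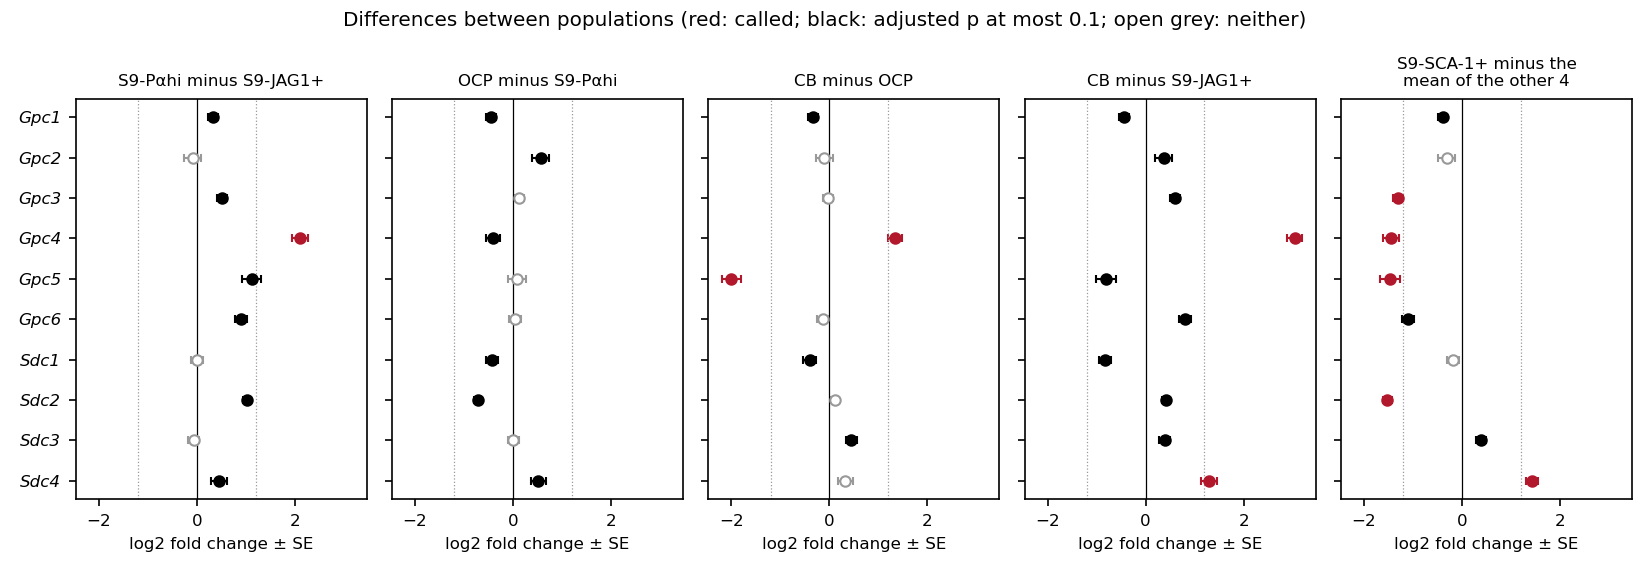
Log2 fold change with its SE for each member in the 5 comparisons, with dotted lines at -1.2 and 1.2. Red points were called, black points passed the test and open grey points did not. *Gpc4* is red in 4 panels, on the right in 3 and on the left in S9-SCA-1+ cells.

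The S9-SCA-1+ cells, the population with *Pax3* and the other myogenic transcripts (7 markers summing to 1501 and 1504 CPM, against at most 11.4 elsewhere), had lower levels of most glypicans than the mean of the other 4 populations. *Gpc5* (-1.47 ± 0.20), *Gpc4* (-1.44 ± 0.16) and *Gpc3* (-1.30 ± 0.11) were called lower, as was *Sdc2* (-1.52 ± 0.09, adjusted p = 1.11e-08), and *Sdc4* was called higher (1.43 ± 0.13, 7.86e-07). Thus 5 members were called where 11.3% of tested genes were, 4 of them lower (6.80%) and 1 higher (4.46%). *Gpc6* was lower by -1.10 ± 0.12 and *Gpc1* by -0.39 ± 0.10, *Sdc3* was higher by 0.38 ± 0.10, and *Gpc2* and *Sdc1* did not pass at -0.31 and -0.18; 46.4% of tested genes passed (23.5% higher, 22.8% lower). The median over members was -0.75, against -0.01 over all tested genes. *Gpc3*, *Gpc6* and *Sdc2* were lower, and *Sdc4* higher, in both S9-SCA-1+ libraries than in any of the other 12, which held for 20.9% of tested genes in either direction. The comparison with a mean hides unequal partners: *Gpc4* in S9-SCA-1+ cells was far below chondroblasts (-2.77 ± 0.18) but at 0.27 ± 0.18 against S9-JAG1+ LMPs, and *Gpc5* was lower than in OCPs by -2.30 ± 0.23 but at -0.29 ± 0.24 against chondroblasts.

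Each of these calls was also made without S9-SCA-1+ replicate 3, the library with red blood cell transcripts. Without it *Gpc1* lost its pass (-0.32, adjusted p = 0.118), and without S9-SCA-1+ replicate 2 *Sdc3* lost it (0.29, 0.151) and *Gpc6* became called (-1.22). *Gpc2* passed without OCP replicate 1 (-0.34, 0.0862) and *Sdc1* without OCP replicate 2 (-0.22, 0.0236).

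Several members moved alike over the 14 libraries, as a description in which the points share populations and no p is given. Pearson correlations of log2 CPM were highest between *Gpc3* and *Gpc6* (0.94), *Gpc1* and *Sdc1* (0.87), *Gpc3* and *Sdc2* (0.87) and *Gpc6* and *Sdc2* (0.86), and lowest between *Gpc5* and *Sdc3* (-0.82). The neighbours on the X chromosome, *Gpc3* and *Gpc4*, were at 0.75, and those on chromosome 14, *Gpc5* and *Gpc6*, at 0.61. Among all tested genes, the profile most like that of *Gpc3* was *Sh3bp5* (0.98), then *Tns3* and *Gpr4*. *Zpld1* (0.99), *Kifap3* and *Ssbp2* were most like *Gpc4*, *Fnd3c2* (0.96), *Fndc3c1* and *Rsrc1* most like *Gpc5*, and *Shox2* (0.98), the limb homeobox gene, *Spata18* and *Fbln5* most like *Gpc6*. For *Gpc1* they were *Gap43* (0.97), *Crabp1* and *Cyp1b1*, and for *Gpc2*, *Mtcp1* (0.95), *Mink1* and *Gtpbp2*. Of the syndecans, *Sdc1* was matched best by *Fads2* (0.97), *Gm4737* and *Lipg*, *Sdc2* by *Enox1* (0.97), *Sema6d* and the limb T-box gene *Tbx3*, *Sdc3* by *Sptssa* (0.96), *H2aw* and *Crtap*, and *Sdc4* by *Rimkla* (0.97), *Pgf* and *Epha6*.

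Core proteins act through the chains they carry, so 46 further genes of heparan sulfate were listed, of which 44 were tested: enzymes that start and extend the chain, sulfotransferases and the epimerase, enzymes that trim or cleave it, other core proteins, and adaptors of the syndecan tail. From S9-JAG1+ to S9-Pαhi LMPs, 5 of the 44 were called higher and 2 lower, where 4.42% and 2.58% of tested genes were, and the median log2 fold change was 0.14 against -0.0025 over all tested genes. *Hs3st1* (2.79 ± 0.42), a 3-O-sulfotransferase, and *Hpse* (2.69 ± 0.23), the heparanase that cuts the chain, were among the 3 largest. In S9-JAG1+ libraries they had only 3 to 7 and 11 to 13 counts. The third, *Hs3st4*, had 1 count in every S9-JAG1+ library and 7 to 27 in S9-Pαhi LMPs. From S9-Pαhi LMPs to OCPs, 3 were called higher and 2 lower (3.48% and 1.36% of tested genes), with a median of -0.03 against 0.02. *Hs3st3b1* was higher by 2.05 ± 0.20, *Notum*, a secreted lipase that removes the lipid of WNT proteins and was first described as cutting glypicans, was lower by -2.41 ± 0.25, and *Hs3st5* had no count in S9-Pαhi libraries and 4 to 9 in OCPs.

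In chondroblasts compared with OCPs, 10 of 44 were called higher and only *Notum* lower, where 6.60% and 1.16% of tested genes were. The test was passed by 25 as higher and 2 as lower (18.3% and 16.5% of tested genes), and the median was 0.38 for the list and -0.02 for all genes. *Sulf1*, an extracellular enzyme that removes 6-O-sulfate from finished chains, was at 274.6 ± 68.5 CPM in chondroblasts against 28.7 ± 7.56 in OCPs (SD, n = 3 each; log2 fold change 3.26 ± 0.29, adjusted p = 5.08e-06). *Extl1* (3.04 ± 0.37) and *Ndst4* (3.04 ± 0.68), an N-deacetylase/N-sulfotransferase, were low in absolute terms. They had 152 to 253 and 17 to 23 counts in chondroblasts against 11 to 31 and 1 to 3 in OCPs. Of the 15 sulfation genes tested, 11 passed as higher and none as lower. Of the 11 genes for chain start and extension, 3 passed as higher and none as lower, and the difference between these groups of genes was not tested. Against S9-JAG1+ LMPs, 14 of 44 were called higher and *Notum* lower (15.2% and 4.17% of tested genes), led by *Sulf1* (4.92 ± 0.32), *Hs3st1* (4.79 ± 0.39) and *Hs3st5*. *Hs3st1* had 97 to 242 counts in chondroblasts and 3 to 7 in S9-JAG1+ LMPs, and *Hs3st5* had 20 to 56 and 0 or 1.

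In S9-SCA-1+ cells, 4 of the 44 were called higher and 8 lower than the mean of the other populations, where 4.46% and 6.80% of tested genes were, with a median of -0.13 against -0.01. *Hs6st3*, a 6-O-sulfotransferase, was higher by 3.96 ± 0.42, at 40 and 55 counts against at most 7 in any other library. *Hpse2* (-2.86 ± 0.24) and *Hs3st1* (-2.81 ± 0.44) were lower, *Hs3st1* with 5 and 8 counts in S9-SCA-1+ libraries and 3 to 7 in S9-JAG1+ LMPs. *Notum* was at 16.3 CPM in S9-SCA-1+ cells, 10.9 in S9-JAG1+ LMPs, 16.2 in S9-Pαhi LMPs, 3.06 in OCPs and 0.739 in chondroblasts. Setting *Hs3st5*, which has no count in some populations, to its limit of 3 counts per library left these medians as given. As this replaced at most 1 of 44 values, it says little about other genes with few counts.

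**Figure D5:**
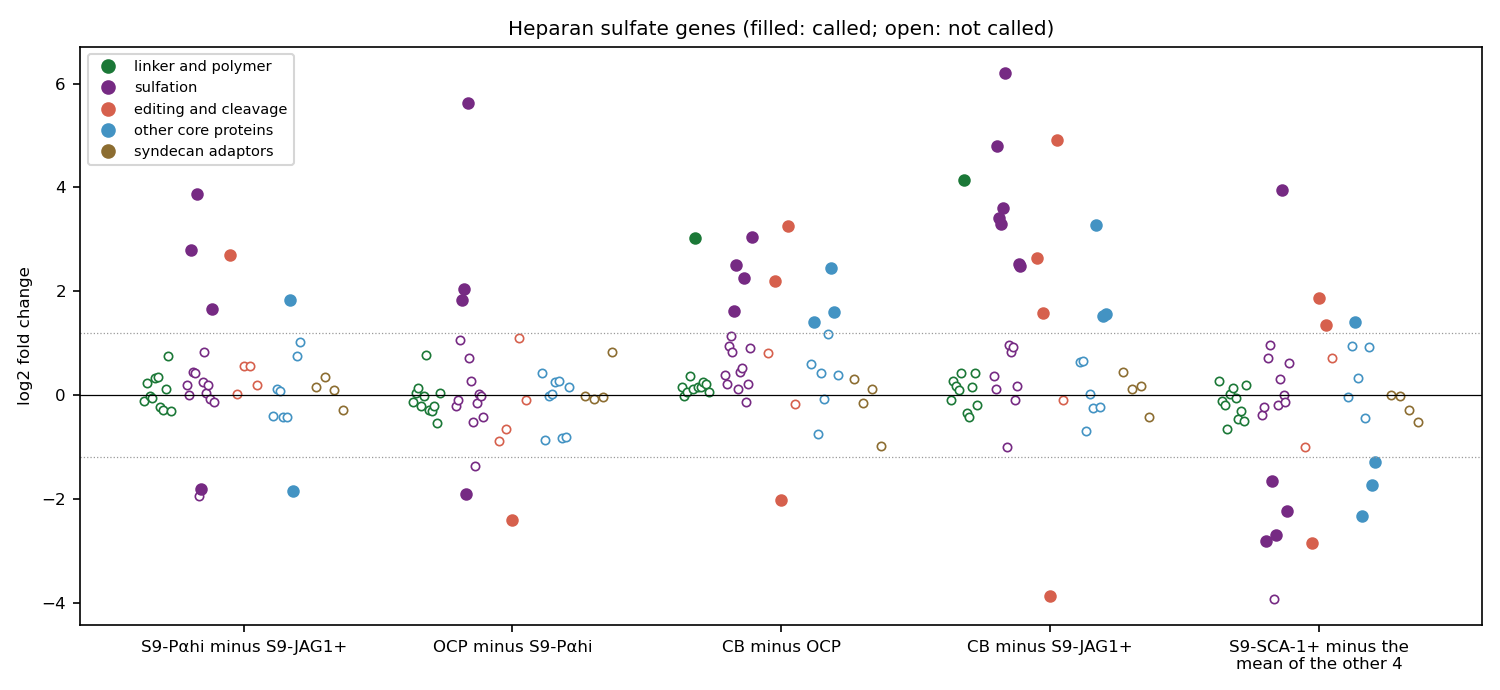
Log2 fold change of the 44 tested heparan sulfate genes in the 5 comparisons, coloured by role, with dotted lines at -1.2 and 1.2. Filled points were called, and the chondroblast comparisons hold 10 and 14 filled points above 0 and 1 below in each; the points near 5.62 and 6.20 are *Hs3st5*, whose comparison populations had 0 or 1 count.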

How the data were processed

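RNA-seq counts were analysed for 14 libraries of 5 FACS-isolated mouse forelimb bud populations. According to the methods, the authors mapped single reads to mm10 with STAR, keeping 1 position per multi-mapping read, and deposited raw counts of reads starting in RefSeq mRNA exons (QuasR qCount), with the summed exon length in bases, from poly(A)-selected RNA of pooled forelimb buds. Strand use is not given in the sources used here. Of 24454 identifiers, 24374 matched a RefSeq symbol (GRCm38.p6); the other 80 held 0.358% of counts.

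Counts were fitted with edgeR 4.0.16 (quasi-likelihood, filterByExpr, TMM, 1 mean per population, all libraries), with R 4.3.3, and adjusted by Benjamini-Hochberg; the limits of 0.1 and 1.2 are numbers from the study's methods, which state P without naming an adjustment, and 0.1 was applied here to the adjusted p. SE is the log2 fold change divided by the root of F. CPM uses TMM-scaled totals, log2 CPM a prior count of 2. All members were named; of the heparan sulfate list the 3 called genes with the largest change per comparison, and for likeness the 3 genes with the highest Pearson r. Markers and genes with an overlap, count of 0 or Xist level were named beside the value they touch; these, and *Notum* in the chondroblast and S9-SCA-1+ comparisons, were named after their values were seen. Members and lists were chosen with earlier results of these data known. The fit was also run on simulated counts in which fewer genes differed than in these data, and no result here rests on that run. Alternatives were DESeq2 1.42.0 scaling and Wald test, no filter, a replicate block, fewer populations in the fit, leaving out each library and, chosen after seeing the data, library totals as the only scaling.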

Additional observations from a re-analysis of the deposited data

How the results depend on the processing

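The number of members called was 1, 0, 2, 2 and 5 in the 5 comparisons (in the order of the text) under DESeq2 size factors, no filter on low counts, the DESeq2 Wald test, library totals and the replicate block alike, and the joint test passed for 10 members under each. Leaving out each library in turn gave between 1 and 2 called members in S9-Pαhi LMPs compared with S9-JAG1+ LMPs, between 5 and 6 where S9-SCA-1+ cells were compared, and 69 to 77 of the 100 pair tests passed (78 with library totals); the other counts of called members stayed as they were. Without the S9-SCA-1+ libraries in the fit, 44 of 60 pair tests passed, as in the fit with them. With the replicate block, 77 pair tests passed and the counts of called members were as without it. Same-numbered libraries deviated together (r above 0.1) in only 4 of 26 pairs, and 5 of 14 libraries were closest to their own number. Differently numbered libraries reached r = 0.41 (S9-Pαhi replicate 3 with OCP replicate 1), against at most 0.31 for the same number. Whether populations were sorted from the same pools under other numbers was not tested, and no fit here allowed for such a pairing.

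Signs turned only for differences that did not pass the test. For *Sdc3*, OCPs against S9-Pαhi LMPs, the log2 fold change of 0.0039 became -0.0052 with DESeq2 size factors, -0.00513 with the Wald test and -0.00115 with the replicate block, and *Gpc3*, chondroblasts against OCPs, became 0.038 with library totals. On leaving out each library, the ranges were -0.14 to 0.11 for *Sdc3*, -0.029 to 0.18 for *Gpc5* and -0.024 to 0.15 for *Gpc6* (OCPs against S9-Pαhi LMPs), -0.19 to 0.036 for *Gpc2* and -0.035 to 0.061 for *Sdc1* (S9-Pαhi against S9-JAG1+ LMPs), and -0.16 to 0.057 for *Gpc3* and -0.23 to 0.10 for *Gpc2* (chondroblasts against OCPs). Library totals moved the median of all genes by 0.12 (chondroblasts against S9-JAG1+ LMPs), and by at most 0.07 in the other comparisons. *Gpc5*, with 25 to 146 counts per library, is the member that depth limits most. With 2 S9-SCA-1+ libraries, leaving 1 out assumes that the other varies like the remaining populations.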
